A study of Mus musculus with 18 samples.

Results

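A set of 10 marker genes of hepatic stellate cells were followed in bulk liver RNA from mice, and 9 of the 10 had a line among the 15052 genes measured. The set counts *Lrat*, *Reln* and *Ecm1* as quiescent markers and *Ngfr*, *Des*, *Pdgfra*, *Pdgfrb*, *Acta2* and *Vim* as activated markers. Whether the activated markers follow a single state of the cells was not tested. *Tagln*, the other activated marker of the set, was not analysed here. The members were matched in the table by gene symbol, and the set itself was chosen with earlier results of these data known.

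The study fed WT C57BL/6J and *Apoe* knockout (*Apoe* KO) mice, 10 to 12 weeks old, in the chronic-plus-binge model of alcohol exposure, and polyA RNA of whole liver was sequenced from 18 mice. After 5 days of acclimation, the EtOH-fed mice, 5 WT and 4 *Apoe* KO, were kept for 10 days on liquid food holding 5% (v/v) ethanol, received 5 g/kg ethanol by gavage on day 11 and were killed 9 h later. The 4 pair-fed WT and 5 pair-fed *Apoe* KO mice drank an isocaloric diet for 10 days and received 9 g/kg dextrin-maltose. The knockout is in the germline, so it affects every cell type, stellate cells, hepatocytes and macrophages alike.

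Stellate cells lie between the hepatocytes and the sinusoidal endothelium and store most of the body's vitamin A as retinyl esters. After liver injury they lose these stores and become contractile, matrix-producing myofibroblasts, the main source of scar collagen, under signals such as PDGF and TGF-β. *Lrat* makes the retinyl esters, *Reln* encodes the secreted glycoprotein reelin and *Ecm1* a matrix protein that restrains the release of active TGF-β. *Ngfr* encodes the low-affinity neurotrophin receptor, *Pdgfra* and *Pdgfrb* the receptors for PDGF, *Des* and *Vim* intermediate filament proteins, and *Acta2* the smooth muscle actin by which myofibroblasts are recognised. Several of these genes are shared with other cells of the liver, above all *Vim*, which leukocytes, endothelium and cholangiocytes express, and *Acta2*, which vascular smooth muscle expresses. In bulk liver, more cells of a type and more RNA per cell cannot be told apart.

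The start sites of 8 of the 9 members were found in RefSeq (GRCm38.p6), and the 250 bases before each start are the windows compared here. Windows are shown whole, 5′ to 3′ on the strand of the gene, for *Lrat*, *Des* and *Pdgfra*, a quiescent marker, a filament gene and a receptor gene that were all higher in EtOH-fed than in pair-fed *Apoe* KO mice. Capitals mark 4 motifs searched on both strands, namely the CArG-like box of serum response factor (CC, 6 bases with at most 1 C or G, then GG), TATAA, the GC box GGGCGG and the AP-1 site TGANTCA. *Lrat* is at chr3:82903975-82904224 (minus strand), *Des* at chr1:75360042-75360291 (plus strand) and *Pdgfra* at chr5:75152001-75152250 (plus strand).
Lrat: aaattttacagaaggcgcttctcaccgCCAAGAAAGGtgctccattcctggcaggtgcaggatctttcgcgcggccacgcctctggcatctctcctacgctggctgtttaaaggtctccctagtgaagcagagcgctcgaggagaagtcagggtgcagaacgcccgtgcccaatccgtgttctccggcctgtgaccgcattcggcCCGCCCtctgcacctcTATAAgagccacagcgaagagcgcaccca
Des: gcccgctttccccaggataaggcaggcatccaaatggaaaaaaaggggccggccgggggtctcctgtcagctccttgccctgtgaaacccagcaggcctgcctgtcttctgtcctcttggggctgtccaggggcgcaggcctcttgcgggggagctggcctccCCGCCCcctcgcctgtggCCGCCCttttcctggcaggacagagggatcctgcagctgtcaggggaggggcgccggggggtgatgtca
Pdgfra: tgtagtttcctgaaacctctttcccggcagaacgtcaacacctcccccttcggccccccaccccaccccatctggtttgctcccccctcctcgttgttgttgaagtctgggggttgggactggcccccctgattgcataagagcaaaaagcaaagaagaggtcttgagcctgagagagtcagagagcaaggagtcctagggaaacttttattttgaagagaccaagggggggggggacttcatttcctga

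For *Acta2* and *Vim*, most of the window lies in an annotated exon of a longer GENCODE transcript (217 and 250 of the 250 bases), and stretches of 30 bases around the marked motifs are shown. The *Acta2* window on the minus strand of chromosome 19 held 2 CArG-like boxes, the elements through which serum response factor is known to drive smooth muscle genes, whose first bases were 84 and 34 bases before the start. The upper one is at chr19:34255438-34255467 and the lower one at chr19:34255388-34255417. The *Vim* stretch at chr2:13574268-13574297 (plus strand) holds TATAA on both strands, from 33 bases before the start.
Acta2, upper box: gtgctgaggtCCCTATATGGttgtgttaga
Acta2, lower box: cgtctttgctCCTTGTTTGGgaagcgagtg
Vim, TATAA: cctaacagtgTTATAAaagcagcgcccttg

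Among the 8 members with a window, the CArG-like box occurred in 2 (*Acta2* and *Lrat*), TATAA in 3 (*Vim*, *Lrat* and *Ecm1*), GGGCGG in 5 and TGANTCA in 1 (*Ecm1*). Of 32851 windows of the same length, these motifs occurred in 8.59%, 22.8%, 32.7% and 6.75%. A match is a run of letters and was not tested as a binding site. *Pdgfra* held none of the 4 motifs in its window, and *Reln* held 6 copies of GGGCGG.

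The values are read counts per gene scaled by the authors to a nearly common total of 32267493 to 32292618 units per mouse, so that a value is in scaled units, not reads. The estimated depth ran from 5.61 to 52.2 M reads on genes in the 15 mice in which the spacing of low values could be read, with group medians of 39.5 M (3 mice) and 10.9 M in the EtOH-fed and of 14.9 M and 21.4 M in the pair-fed WT and *Apoe* KO mice. *Apoe* ranged from 611230 to 798431 in WT and from 8586 to 108651 in *Apoe* KO mice, and matched the genotype labels of all 18. Some *Apoe* signal thus remained in the *Apoe* KO mice. Pair-fed mice 1 to 5 had 35484, 11504, 27229, 108651 and 8586, and EtOH-fed mice 1, 2, 4 and 5 had 12041, 57963, 61572 and 48574. The estimated depth was 8.52, 23.9, 18.8 and 44.3 M in pair-fed mice 1, 3, 4 and 5 and could not be read in pair-fed mouse 2. It was 45.8 M in EtOH-fed mouse 1 and 7.88 to 13.5 M in EtOH-fed mice 2, 4 and 5. The source of this signal was not tested. The labels list all mice as female, but EtOH-fed *Apoe* KO mouse 1 had an *Xist* value of 826 (15227 to 30379 in the other 17 mice), a *Ddx3y* value of 1077 (at most 118) and an *Eif2s3y* value of 898 (at most 86). Results are therefore also given without that mouse. *Lrat*, *Reln* and *Ecm1* were at 572 or more in every mouse. This shows that they were measured, but in bulk RNA not which cells made them. Their levels stood beside 10 hepatocyte markers at 12776 or more in every mouse.

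Groups were compared with limma on log2(value + 1), with Benjamini-Hochberg adjustment of the p-values across all 15052 genes. A gene is said to rise or fall where the adjusted p-value is under 0.05, and fold changes are on the log2(value + 1) scale. Nothing in the labels says whether mice shared a cage or litter.

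Per kb of exon, genes can be set side by side. On this scale *Ecm1*, *Vim*, *Lrat* and *Pdgfrb* had the highest mean levels, in this order in every group. The order of the other markers changed between groups. *Ecm1* was highest, at 2214 units per kb in pair-fed WT mice and at 1978 in *Apoe* KO mice on EtOH, followed by *Vim* at 509 and 866 and by *Lrat* at 151 and 261. The other 6 markers lay between 19.8 and 68.5 units per kb in pair-fed WT mice, with *Pdgfra* lowest, and between 32.8 and 130 in EtOH-fed *Apoe* KO mice, with *Ngfr* lowest. *Acta2*, the classical activation marker, had group means from 27.3 units per kb in pair-fed to 95.4 in EtOH-fed *Apoe* KO mice over the 4 groups.

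**Figure D1:**
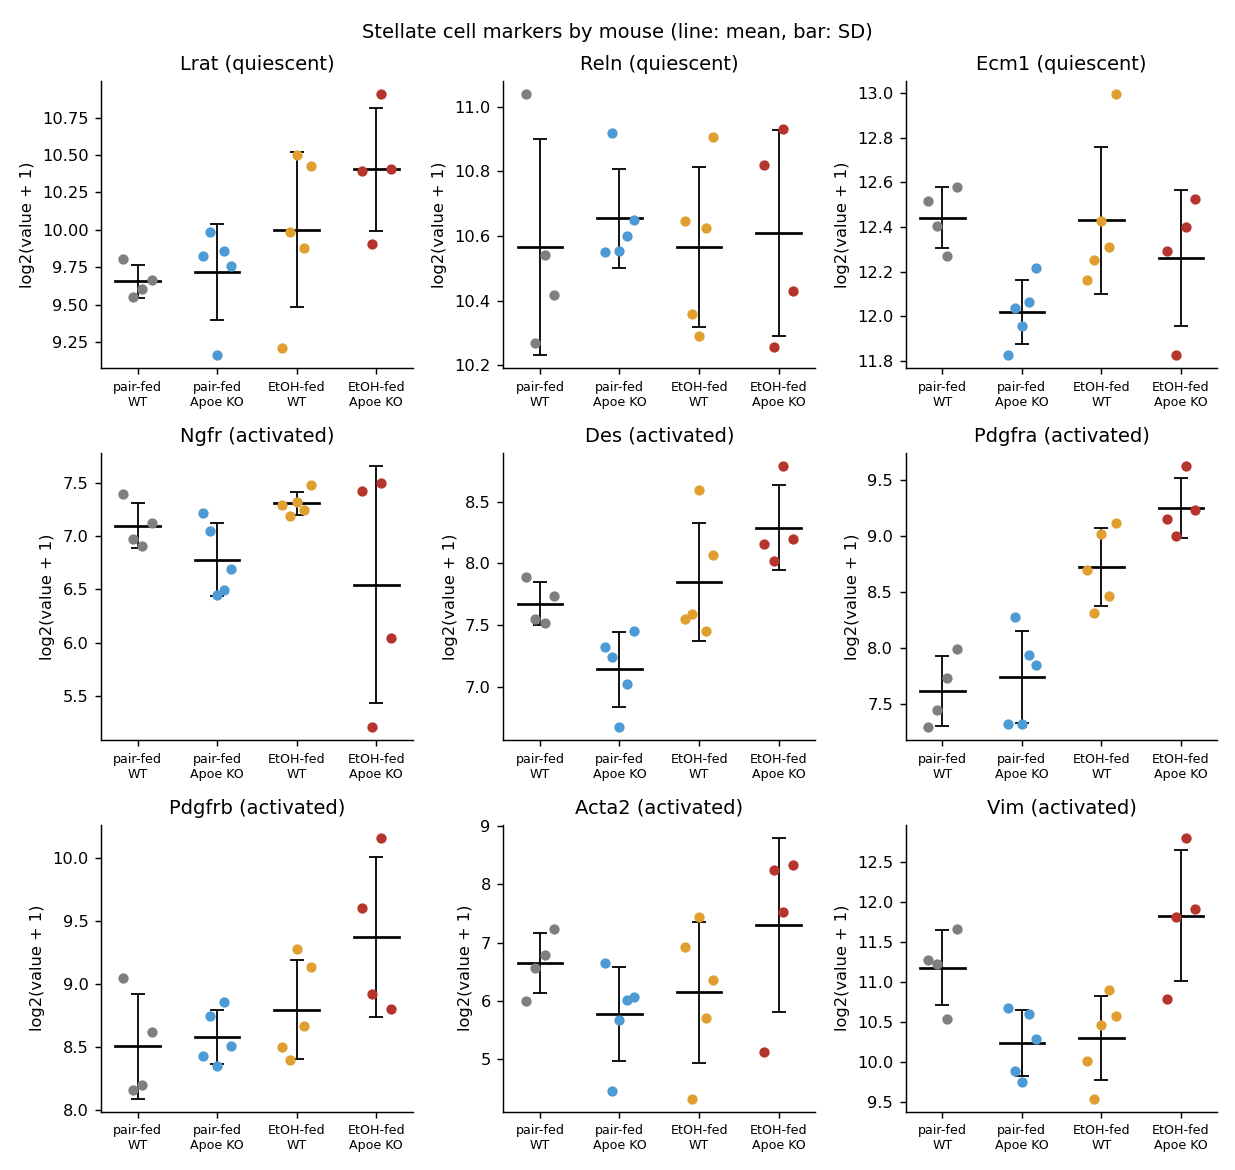
Values of the 9 stellate cell markers as log2(value + 1), 1 point per mouse (EtOH-fed 5 WT and 4 Apoe KO, pair-fed 4 WT and 5 Apoe KO), with the group mean as a line and the SD as a bar. Each panel has its own axis. Pdgfra lay higher in both EtOH-fed groups than in their pair-fed groups without overlap, whereas Vim was highest in the pair-fed WT group and in Apoe KO mice fed EtOH.

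The first question was whether the loss of *Apoe* altered the stellate markers in EtOH-fed mice. Of the 9 markers, *Vim* rose in EtOH-fed *Apoe* KO over EtOH-fed WT mice and no other marker passed the test in either direction. Over all genes 4.69% passed, 4.25% upward and 0.445% downward, so that 1 of 9 markers is not far from the background. The median log2 fold change was 0.55 for the 6 activated and 0.04 for the 3 quiescent markers, beside 0.11 for all genes.

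*Vim* values were 1037, 747, 1409, 1916 and 1533 in EtOH-fed WT mice and 1776, 3600, 7172 and 3883 in EtOH-fed *Apoe* KO mice 1, 2, 4 and 5. The *Apoe* KO mice were higher except mouse 1, which lay below the highest WT mouse. The mean was 1328 ± 452 (SD, n = 5) in WT and 4108 ± 2246 (SD, n = 4) in *Apoe* KO mice, a log2 fold change of 1.53 (SE 0.33, 2.89-fold, limma with Benjamini-Hochberg adjusted p = 0.0209). Without mouse 1 the log2 fold change was 1.88 (adjusted p = 0.00756 by the same limma fit). The call was lost without EtOH-fed WT mouse 1 or without EtOH-fed *Apoe* KO mouse 4 or 5 (log2 fold changes from 1.21 to 1.88 over all 9 omissions, highest adjusted p = 0.0608 by limma). Mouse 1 had an estimated depth of 45.8 M reads, whereas mice 2, 4 and 5 had 13.5, 7.88 and 8.39 M. The part of depth in the *Vim* values was not tested.

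The PDGF receptors, the filament gene *Des* and *Acta2* had higher means in EtOH-fed *Apoe* KO mice but did not pass the test. *Pdgfra* was 414, 316, 519, 353 and 554 in EtOH-fed WT and 567, 511, 790 and 600 in *Apoe* KO mice, so that 3 of the 4 *Apoe* KO mice lay above every WT mouse (log2 fold change 0.53, 95% interval 0.13 to 0.93, limma adjusted p = 0.133). *Pdgfrb* was 362, 336, 622, 405 and 562 in WT and 779, 485, 1146 and 446 in *Apoe* KO mice (log2 fold change 0.58, 95% interval 0.00 to 1.15, limma adjusted p = 0.263). The *Pdgfrb* values overlapped, mice 1 and 4 lying above all WT mice and mice 2 and 5 within them.

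*Acta2* had the widest spread of the markers. Its values were 120, 19, 173, 51 and 81 in EtOH-fed WT and 34, 301, 184 and 319 in *Apoe* KO mice, and mouse 1 was the low one. The mean was 88.8 ± 60.1 (SD, n = 5) in WT and 210 ± 131 (SD, n = 4) in *Apoe* KO mice, with a log2 fold change of 1.16 whose 95% interval ran from −0.28 to 2.60 (limma adjusted p = 0.388). Without mouse 1 it was 1.88 (limma adjusted p = 0.0826). A difference of this size could not be separated from the spread between mice.

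*Des* lay at 186, 191, 385, 174 and 267 in WT and at 284, 258, 442 and 292 in *Apoe* KO mice, overlapping values with a log2 fold change of 0.44 (95% interval −0.08 to 0.97, limma adjusted p = 0.362). *Ngfr*, the neurotrophin receptor, was even in EtOH-fed WT mice at 156, 145, 159, 151 and 177. In *Apoe* KO mice it split into 171 and 180 in mice 1 and 4 and 36 and 65 in mice 2 and 5. The log2 fold change was −0.76 (95% interval −1.60 to 0.08, limma adjusted p = 0.324). One read stood for an estimated 2.39 units in mouse 2 and 3.85 in mouse 5, so the low *Ngfr* values rest on few reads.

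Among the quiescent markers, *Lrat* was 590, 1015, 1449, 941 and 1377 in EtOH-fed WT and 1346, 957, 1920 and 1357 in *Apoe* KO mice. The values overlapped, and the log2 fold change was 0.40 (95% interval −0.13 to 0.93, limma adjusted p = 0.419). *Reln* was 1532 ± 266 (SD, n = 5) and 1590 ± 346 (SD, n = 4), with a log2 difference between −0.30 and 0.39 at 95%. *Ecm1* was 5644 ± 1449 (SD, n = 5) and 4987 ± 973 (SD, n = 4), with a 95% interval from −0.54 to 0.21. None of the 3 passed, and these intervals reach down to −0.13 for *Lrat*, −0.30 for *Reln* and −0.54 for *Ecm1*.

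**Figure D2:**
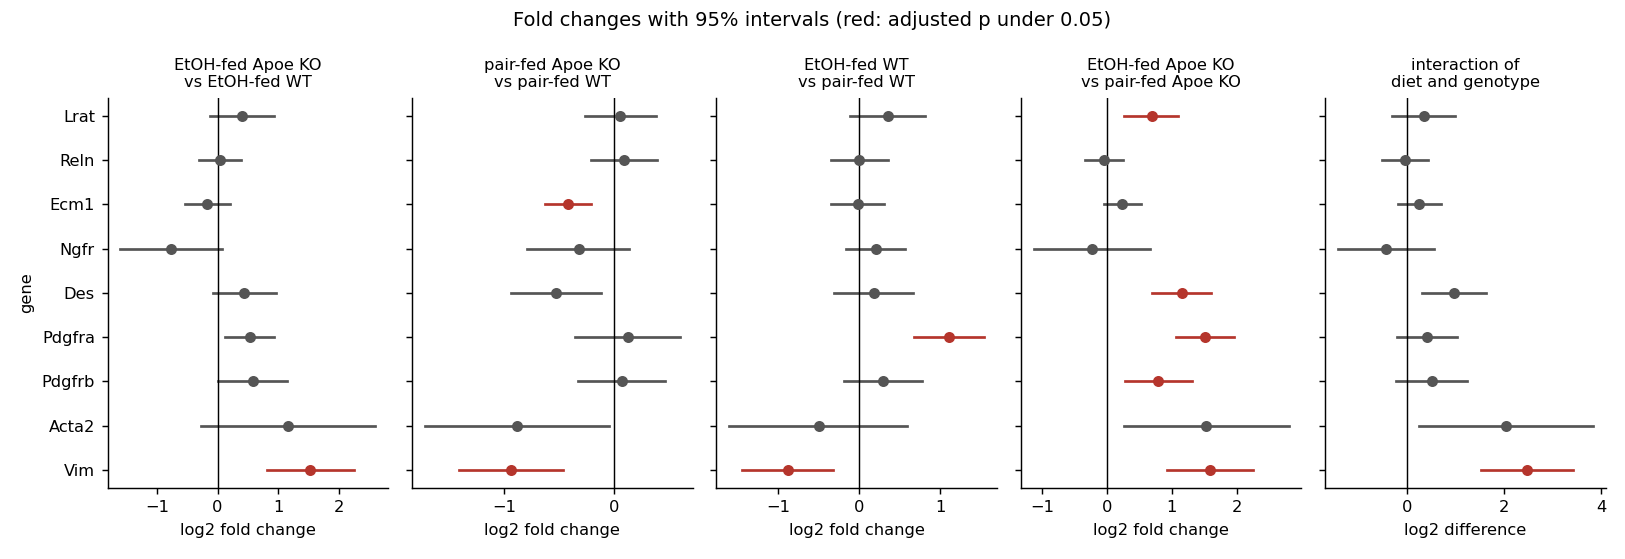
Log2 fold changes of the 9 markers with their 95% intervals in the 4 pairwise comparisons and, in the last panel, the difference between genotypes in the log2 effect of EtOH feeding. Red marks an adjusted p-value under 0.05. Vim is red in all 5 panels, to the right in 3 and to the left in 2.

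The second question was whether the genotypes differed before EtOH. In pair-fed mice *Vim* and *Ecm1* fell in *Apoe* KO against WT, and none of the 9 markers rose. Over all genes 1.73% passed, 0.87% upward and 0.864% downward. *Vim* was 2489, 2404, 1493 and 3265 in pair-fed WT and 1645, 950, 866, 1550 and 1252 in pair-fed *Apoe* KO mice. Only WT mouse 3 lay within the *Apoe* KO range, and the log2 fold change was −0.94 (SE 0.22, limma adjusted p = 0.0494). *Ecm1* was 5854, 5417, 4937 and 6122 in WT and 3632, 4203, 3978, 4283 and 4764 in *Apoe* KO mice. These values did not overlap, with a log2 fold change of −0.42 (SE 0.10, limma adjusted p = 0.0494).

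Both pair-fed calls sat at the threshold, and neither passed with all 4 groups in the fit (limma adjusted p = 0.122 for *Vim* and 0.138 for *Ecm1*). Each was lost in 7 of the 9 fits that left out 1 mouse, those without WT mouse 1, 2 or 4 or without *Apoe* KO mouse 1, 2, 3 or 4 (highest adjusted p = 0.169 for *Vim* and 0.154 for *Ecm1* by limma). *Des* was 236, 186, 182 and 212 in WT and 159, 150, 101, 129 and 174 in *Apoe* KO mice, which did not overlap either. Its log2 fold change of −0.53 did not pass (limma adjusted p = 0.146). *Acta2* was 63, 94, 110 and 150 in WT and 99, 21, 50, 64 and 66 in *Apoe* KO mice, overlapping groups with a log2 fold change of −0.88 (95% interval −1.72 to −0.04, limma adjusted p = 0.232). The intervals of *Lrat*, *Reln*, *Pdgfra* and *Pdgfrb* all held 0, with log2 fold changes from 0.06 to 0.13, and *Ngfr* had −0.32 (95% interval −0.79 to 0.14).

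EtOH feeding was then compared within each genotype. In WT mice *Pdgfra* rose and *Vim* fell, and the other 7 markers did not pass, against 12.7% of all genes (6.19% upward, 6.52% downward). *Pdgfra* was 156, 173, 211 and 254 in pair-fed WT and 414, 316, 519, 353 and 554 in EtOH-fed WT mice, which did not overlap. Its mean went from 199 ± 43.6 (SD, n = 4) to 431 ± 103 (SD, n = 5), a log2 fold change of 1.11 (SE 0.20, 2.15-fold, limma adjusted p = 0.0035), and this call held in all 9 fits that left out 1 mouse. *Vim* fell by 0.88 on the log2 scale (SE 0.26, limma adjusted p = 0.0401). Its call was lost in 6 of 9 such fits, those without pair-fed WT mouse 1, 2 or 4 or EtOH-fed WT mouse 1, 2 or 3 (highest adjusted p = 0.127 by limma), and also with all 4 groups in the fit (adjusted p = 0.067).

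*Lrat* in WT mice went from 807 ± 62.2 (SD, n = 4) to 1074 ± 349 (SD, n = 5), with a spread that widened in the EtOH-fed mice and a log2 fold change of 0.35 (limma adjusted p = 0.319). EtOH-fed WT mouse 1 held the lowest value, 590, and without it *Lrat* passed at 0.54 (limma adjusted p = 0.0406). *Acta2* did not pass at −0.50 (95% interval −1.60 to 0.59), nor did *Des* at 0.18 or *Pdgfrb* at 0.29.

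In *Apoe* KO mice 5 of the 9 markers rose with EtOH and none fell, namely *Pdgfra*, *Des*, *Vim*, *Lrat* and *Pdgfrb*, while 23.2% of all genes passed (16.3% upward, 6.92% downward). The median log2 fold change was 1.33 for the 6 activated and 0.24 for the 3 quiescent markers, beside 0.13 for all genes. *Pdgfra* rose from 159, 309, 159, 244 and 229 to 567, 511, 790 and 600, without overlap, by 1.51 on the log2 scale (SE 0.21, 2.85-fold, limma adjusted p = 0.000278). *Des* rose from 143 ± 28.4 (SD, n = 5) to 319 ± 83.3 (SD, n = 4), also without overlap, by 1.15 (SE 0.21, limma adjusted p = 0.00182). For *Vim* the increase was 1.59 (SE 0.31, 3.01-fold, limma adjusted p = 0.00267), from 866 to 1645 in pair-fed and from 1776 to 7172 in EtOH-fed *Apoe* KO mice.

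*Lrat*, the vitamin A storage enzyme and a marker of the quiescent state, rose with them. It was 906, 1011, 572, 926 and 866 in pair-fed and 1346, 957, 1920 and 1357 in EtOH-fed *Apoe* KO mice, and all EtOH-fed mice but mouse 2 lay above the pair-fed range. The log2 fold change was 0.69 (SE 0.19, 1.61-fold, limma adjusted p = 0.0206), and it was lost without EtOH-fed *Apoe* KO mouse 4 or 5 (highest adjusted p = 0.0653 by limma). *Pdgfrb* was 345, 429, 325, 464 and 363 in pair-fed and 779, 485, 1146 and 446 in EtOH-fed mice. It rose by 0.79 (SE 0.24, limma adjusted p = 0.0277), a call lost in 5 of 9 fits, those without EtOH-fed *Apoe* KO mouse 1 or 4 or pair-fed *Apoe* KO mouse 1, 3 or 5 (highest adjusted p = 0.0715 by limma).

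*Acta2* was the marker that mouse 1 decided. Its log2 fold change between the diets in *Apoe* KO mice was 1.53 (95% interval 0.27 to 2.80, limma adjusted p = 0.0769) with all mice and 2.26 (limma adjusted p = 0.00287) without mouse 1, whose value of 34 lay within the pair-fed range of 21 to 99. *Reln* and *Ecm1* had log2 fold changes of −0.05 and 0.24 with intervals from −0.34 to 0.25 and from −0.04 to 0.52, and *Ngfr* had −0.23 (interval −1.13 to 0.66). Without EtOH-fed *Apoe* KO mouse 2, whose *Ecm1* value of 3633 was the low one, *Ecm1* passed at 0.38 (limma adjusted p = 0.0208). Without mouse 1, 5 markers again passed, and *Acta2* stood in the place of *Pdgfrb* (0.72, limma adjusted p = 0.0715).

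The interaction of diet and genotype, fitted on all 18 mice, asked whether EtOH acted differently in the genotypes. *Vim* passed, the other 8 markers did not, and 2.84% of all genes passed (2.6% upward, 0.239% downward). *Vim* moved by −0.88 in WT and by 1.59 in *Apoe* KO mice, and the difference was 2.47 on the log2 scale (SE 0.45, 95% interval 1.53 to 3.41, limma adjusted p = 0.0069), a call kept in all 18 fits that left out 1 mouse. *Acta2* had a difference of 2.03 (95% interval 0.24 to 3.83, limma adjusted p = 0.23), which passed without mouse 1 (2.76, limma adjusted p = 0.0444). *Des* had 0.97 (limma adjusted p = 0.107) and passed without EtOH-fed WT mouse 3 (1.16, limma adjusted p = 0.0303). For *Pdgfra*, the marker raised in both genotypes, the difference was 0.40 with an interval from −0.22 to 1.03, so that an unequal effect could not be shown at this spread. The 2 diet comparisons and the 2 genotype comparisons draw on the same 4 groups and are not independent of each other.

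Scaling bears on all values of the EtOH-fed *Apoe* KO mice. With median-of-ratios size factors in place of the nearly common total, the median log2 fold change of all genes moved from 0.11 to −0.02 against EtOH-fed WT mice and from 0.13 to 0.00 against pair-fed *Apoe* KO mice. The genes that passed then split into 380 higher and 126 lower in place of 639 and 67 in the first comparison, into 1656 and 1607 in place of 2446 and 1042 in the second, and into 294 and 84 in place of 392 and 36 in the interaction. The calls of the markers stayed as they were. *Vim* had log2 fold changes of 1.40 and 1.46 in these comparisons (limma adjusted p = 0.0273 and 0.00305), *Pdgfra* 1.39 and *Lrat* 0.56 between the diets in *Apoe* KO mice, and *Reln* turned from 0.04 to −0.08 against EtOH-fed WT mice.

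The 2 kinds of marker were also summarised per mouse. As a mean of log2(value + 1) per mouse, the 6 activated markers lay from 7.95 to 8.40 in WT and from 7.37 to 7.94 in *Apoe* KO mice when pair-fed, and from 7.56 to 8.69 and from 8.38 to 9.40 when EtOH-fed. The 3 quiescent markers lay from 10.74 to 11.12, 10.56 to 10.98, 10.67 to 11.44 and 10.66 to 11.41 in the same order. EtOH-fed *Apoe* KO mouse 4 was highest in the activated mean, and only EtOH-fed WT mouse 5 lay above it in the quiescent mean. The activated mean minus the quiescent mean was −2.79, −2.13, −2.01 and −2.37 in EtOH-fed *Apoe* KO mice 1, 2, 4 and 5, from −3.31 to −2.39 in EtOH-fed WT, from −3.37 to −2.80 in pair-fed *Apoe* KO and from −2.97 to −2.49 in pair-fed WT mice. Mice 2, 4 and 5 thus had the 3 highest differences of all 18 mice, and mouse 1 lay among the other groups.

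**Figure D3:**
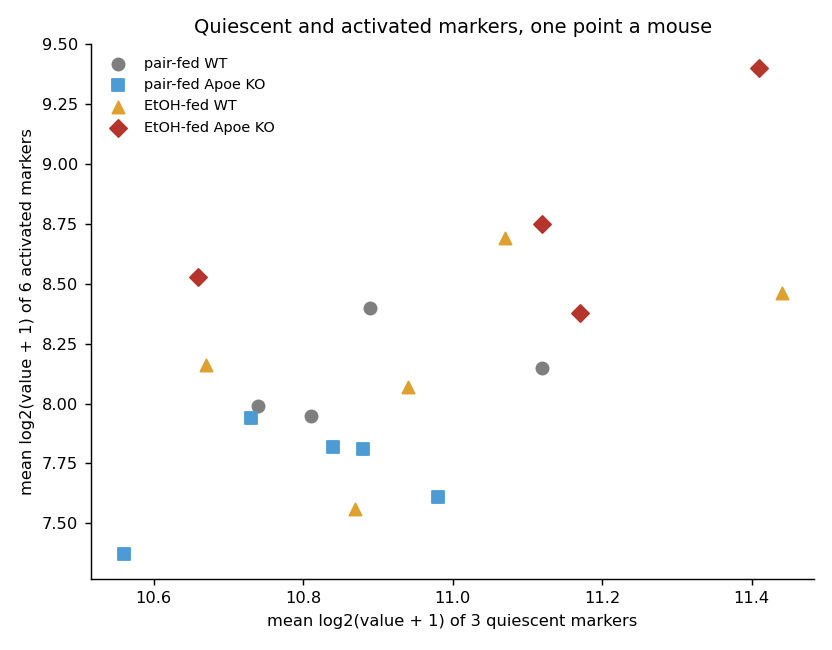
Mean log2(value + 1) of the 3 quiescent markers (x axis) against that of the 6 activated markers (y axis), 1 point per mouse, with a shape and colour for each of the 4 groups. On the y axis pair-fed Apoe KO mice lie at 7.37 to 7.94, all below the EtOH-fed Apoe KO mice at 8.38 to 9.40, while EtOH-fed WT mice, at 7.56 to 8.69, overlap both, and the quiescent means overlap in all groups.

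Within the groups, the markers varied together in part. As deviations from the group means over the 18 mice, *Lrat* correlated with *Des* (Pearson r = 0.80), *Pdgfrb* (0.70), *Ecm1* (0.62) and *Pdgfra* (0.55), but not with *Acta2* (−0.07). *Acta2* correlated with *Vim* (0.57) and ran against *Ngfr* (−0.41) and *Reln* (−0.40). *Reln* correlated with *Ngfr* (0.67) and *Pdgfrb* (0.65). *Des*, *Pdgfra*, *Pdgfrb* and *Ngfr*, counted as activated, thus varied more with *Lrat* or *Reln* than with *Acta2*, while *Vim* did not. These correlations describe libraries that share a scaling and differ in depth. Of 11072 genes with a mean of at least 100, those most like *Lrat* by the same measure were *Mras* (0.91), *Adra2b* (0.88), *Gtf2b* (0.85), *Tfdp1* (0.84) and *Plk2* (0.84). Those most like *Acta2* were *Meg3* (0.80), *Ankrd17* (0.79), *Il33* (0.79) and the genes ENSMUSG00000064372 (0.79) and ENSMUSG00000097451 (0.78).

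Other stellate genes, in lists that do not hold the 9 markers, were set beside them. Of 21 other quiescent genes, none passed between the genotypes on EtOH in the limma fit (7 at an unadjusted p under 0.05, 6 of them higher), with a median log2 fold change of 0.14. At that unadjusted threshold, 2426 of all 15052 genes were higher and 419 lower. With size factors 1 of the 21, *Angptl6*, named after its values were seen, passed as lower (−0.90, limma adjusted p = 0.0391). The 3 with the highest values were *Dcn* (decorin, 0.14), *Steap4* (a metalloreductase, 0.20) and *Prelp* (a matrix proteoglycan, 0.29). Between the diets in *Apoe* KO mice, 12 of the 21 rose and 1 fell, where 16.3% of all genes passed upward and 6.92% downward. *Dcn* rose by 0.61 and *Prelp* by 0.64 (limma adjusted p = 0.00483 and 0.00588). *Steap4* was the one that fell, by 0.67 (limma adjusted p = 0.00871). With size factors 6 rose and 1 fell, and without mouse 1 9 rose and 1 fell. In WT mice 2 of the 21 rose with EtOH (3 with size factors) and none fell, where 6.19% of all genes passed upward. *Prelp* rose there by 0.56 (limma adjusted p = 0.0087). None of the 21 passed in the interaction, where 2.6% of all genes passed upward.

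Of 23 other activated genes, mostly matrix genes, 12 rose in EtOH-fed *Apoe* KO against EtOH-fed WT mice and 0 fell, and 17 were higher at an unadjusted p under 0.05. The median log2 fold change was 0.91, and over all genes 4.25% passed upward and 0.445% downward. At an unadjusted p under 0.05 in the limma fit, 2426 of all 15052 genes were higher and 419 lower. Those with the lowest adjusted p are given here. *Col1a1* was 762 to 1655 in EtOH-fed WT and 3256 to 8331 in EtOH-fed *Apoe* KO mice, without overlap, a log2 fold change of 2.0 (SE 0.28, limma adjusted p = 0.00216). *Col3a1* rose by 1.75 and *Col1a2* by 1.45 (limma adjusted p = 0.00209 and 0.00331), and the collagen crosslinking enzyme *Loxl2* rose by 1.51 (limma adjusted p = 0.00331). Named after its values were seen, *Timp1*, an inhibitor of matrix metalloproteinases, had the largest fold change of the 12 (2.30, limma adjusted p = 0.0256). The count was 11 without mouse 1 and 10 with size factors. In WT mice none of the 23 rose with EtOH and 3 fell, and in *Apoe* KO mice 14 rose and 1 fell (18 and 1 without mouse 1). In the interaction 9 passed upward (11 without mouse 1 and 8 with size factors). Over all genes 6.52% passed downward in WT mice, and 16.3% passed upward in *Apoe* KO mice and 2.6% in the interaction. *Acta2* and *Des*, unlike these collagen genes, did not pass against EtOH-fed WT mice. Whether their fold changes differ from those of the collagen genes was not tested. Bulk RNA does not show which cells made the RNA of the 23 genes, and the part of other cell types in their values was not tested.

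Markers of other cells moved in the same comparison. Of 11 leukocyte markers, 6 rose in EtOH-fed *Apoe* KO against EtOH-fed WT mice (5 without mouse 1 and 6 with size factors), where 4.25% of all genes passed upward. The median of the list was 1.02 on the log2 scale. *Cd68* was 186 to 275 in EtOH-fed WT and 508 to 595 in EtOH-fed *Apoe* KO mice (log2 fold change 1.35, limma adjusted p = 0.000725), *Lyz2* rose by 1.54, *Laptm5* by 1.12 and *Csf1r* by 1.04. In WT mice the leukocyte list had a median of −0.62 with EtOH and 3 of its genes fell, where 6.52% of all genes passed downward. In *Apoe* KO mice it had 0.65 and 4 rose (3 with size factors or without mouse 1), where 16.3% of all genes passed upward. The summed level of the list ran from 3703 to 6041 in EtOH-fed WT, from 8226 to 13047 in EtOH-fed *Apoe* KO, from 5802 to 9657 in pair-fed WT and from 4631 to 9040 in pair-fed *Apoe* KO mice, and none of its genes was at 0 in any mouse. *Vim*, which leukocytes express, was likewise highest in EtOH-fed *Apoe* KO mice. Between the pair-fed genotypes, where *Vim* fell, none of the 11 leukocyte genes passed by limma (median −0.35, 3 lower at an unadjusted p under 0.05, and 0 passed with size factors). Of all 15052 genes, 1402 were lower there at an unadjusted p under 0.05. The part of leukocytes in the *Vim* values was not tested.

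Of the 12 genes in the smooth muscle list, 2 rose in EtOH-fed *Apoe* KO against EtOH-fed WT mice, and the median was 0.49. They were *Actn1* (0.80) and *Flna* (0.67, limma adjusted p = 0.00929 and 0.0488). In this comparison 4.25% of all genes passed upward, which bears on the other lists of this paragraph too. *Flna* did not pass with size factors (0.54, limma adjusted p = 0.0677). The list's summed level was 5300 to 7364 in EtOH-fed WT and 7057 to 9428 in EtOH-fed *Apoe* KO mice, with none of its genes at 0. In these groups *Mylk* had means of 2920 and 2940, *Flna* 1040 and 1670 and *Actn1* 778 and 1370. Named after their values were seen, *Myh11* (83.4 and 164), *Lmod1* (23.4 and 44.5) and *Synpo2* (25 and 26.8) were far lower and did not pass. The part of smooth muscle RNA in the *Acta2* values was not tested. Of 10 portal fibroblast genes 1 rose (*Fbln2*, 1.76, limma adjusted p = 0.0277), in a list with a median of 0.80 and a summed level of 989 to 2002 in EtOH-fed WT and 1719 to 4024 in EtOH-fed *Apoe* KO mice. Without mouse 1, 3 rose. *Krt19*, a keratin of both mesothelium and bile ducts, rose by 2.05 (limma adjusted p = 0.0445) as the only one of 7 mesothelial and of 8 cholangiocyte genes, and did not pass with size factors (1.92, limma adjusted p = 0.0572).

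Neither sinusoidal endothelial nor hepatocyte genes passed in that comparison, with medians of 0.01 for both lists. *Stab1*, *Stab2* and *Fcgr2b*, scavenger and Fc receptors of the sinusoid, had −0.11, 0.15 and −0.20, and *Alb*, *Trf* and *Apoa1*, plasma protein genes of hepatocytes, had −0.16, 0.10 and 0.18. Counts at an unadjusted p under 0.05 were 2 of 12 and 1 of 10, all higher. Of all 15052 genes, 2426 were higher and 419 lower at that threshold. The endothelial list moved with the diet, with 7 of 12 genes higher in EtOH-fed than in pair-fed WT mice and 11 of 12 in *Apoe* KO mice. Over all genes 6.19% and 16.3% passed upward in these comparisons. It also moved between the pair-fed genotypes, where 3 of 12 genes were lower in *Apoe* KO mice (4 with size factors), the median was −0.46 and 0.864% of all genes passed downward. Its summed level was 10561 to 12047 and 6684 to 10088 in pair-fed WT and *Apoe* KO mice and 12763 to 17577 and 12100 to 20082 in the EtOH-fed groups, with none of its genes at 0. *Pdgfra* was higher in both EtOH-fed groups as well, and the part of endothelial RNA in its values was not tested.

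**Figure D4:**
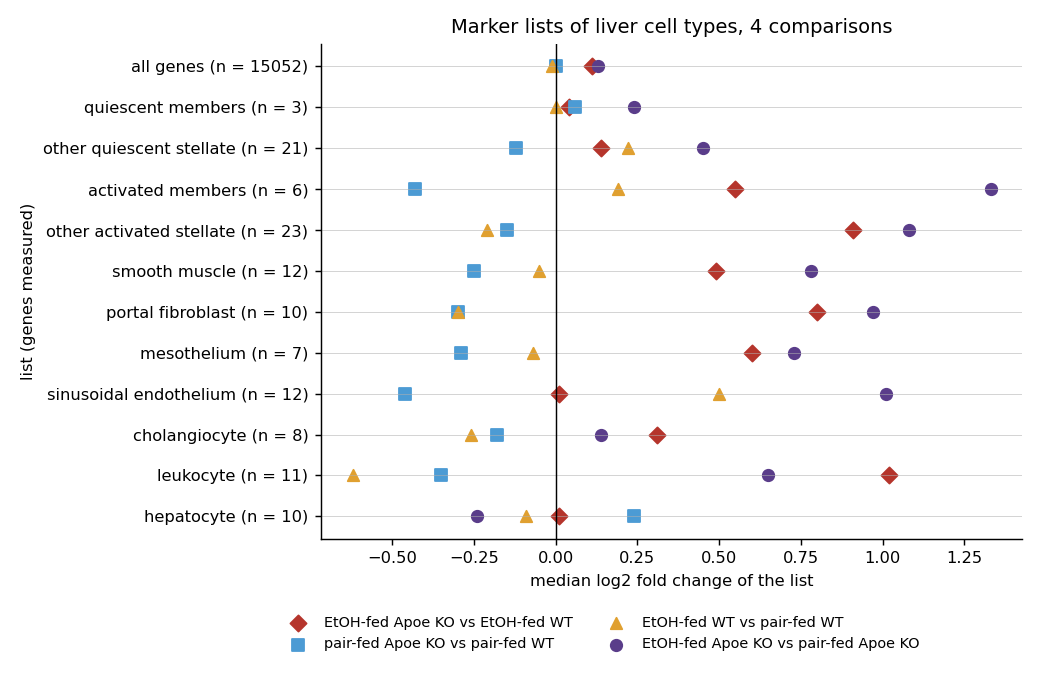
Median log2 fold change of marker lists of liver cell types (y axis, with the number of genes measured) in 4 comparisons, each with its own shape and colour. Against EtOH-fed WT mice (red diamonds), the medians of the leukocyte (1.02), other activated stellate (0.91) and portal fibroblast (0.80) lists lie far to the right, and those of the hepatocyte and sinusoidal endothelial lists at 0.01.

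The pathways in which the markers act were followed by the same fits. Of 14 genes of the PDGF axis, none passed between the genotypes on EtOH by limma. At an unadjusted p under 0.05, 5 were higher, beside 2426 higher and 419 lower of all 15052 genes. The most abundant, *Stat3*, *Pik3r1* and *Ptpn11*, which carry the signal of the receptors, had 0.01, −0.07 and 0.14. Chosen after its values were seen, the ligand gene *Pdgfa* moved as its receptor gene *Pdgfra* did. It was 208 to 328 in pair-fed and 324 to 546 in EtOH-fed WT mice, and 210 to 311 in pair-fed and 590 to 646 in EtOH-fed *Apoe* KO mice. It rose with EtOH by 0.81 in WT and by 1.25 in *Apoe* KO mice (limma adjusted p = 0.0159 and 7.77e-05). The other ligand genes did not pass in WT mice, where means went from 98.2 to 77.6 for *Pdgfb*, 182 to 165 for *Pdgfc* and 77.8 to 89 for *Pdgfd*. In *Apoe* KO mice *Pdgfb* rose by 0.81 (limma adjusted p = 0.0367). *Pdgfc* (182 to 266) and *Pdgfd* (84.8 to 73.2) did not pass there.

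Of 22 genes of the TGF-β axis, 5 rose in EtOH-fed *Apoe* KO against EtOH-fed WT mice (4 with size factors) and none fell. Over all genes 4.25% passed upward, and the median of the list was 0.39. Among them were *Thbs1*, a thrombospondin that activates TGF-β (1.82, limma adjusted p = 0.0143), and the latent TGF-β binding proteins *Ltbp3* (1.23, adjusted p = 0.0202) and *Ltbp1* (1.16, adjusted p = 0.0321). In *Apoe* KO mice 10 of the 22 rose with EtOH, where 16.3% of all genes passed upward. *Ecm1*, which holds TGF-β in its latent form, had −0.17 and did not pass.

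Around *Lrat*, 22 genes of retinoid handling were measured, of which 2 rose against EtOH-fed WT mice and none fell, with a median of 0.19. They were the lipases *Pnpla2* (0.84, limma adjusted p = 0.0106) and *Lpl* (1.16, adjusted p = 0.0135), which act on many lipids besides retinyl esters. With size factors *Pnpla2* did not pass (0.71, limma adjusted p = 0.0571), and *Dhrs3*, a retinaldehyde reductase gene named after its values were seen, fell by 0.39 (limma adjusted p = 0.0382). With EtOH feeding 4 genes of the list were higher and 4 lower in WT mice and 9 higher and 5 lower in *Apoe* KO mice, in comparisons in which 12.7% and 23.2% of all genes passed, against 4.69% between the EtOH-fed genotypes. In WT mice the 4 lower genes were *Pnpla3* (−3.04), *Rdh11* (−1.37), *Ces1d* (−0.51) and *Dhrs3* (−0.33). Their limma adjusted p-values were 0.00025, 4.17e-05, 0.037 and 0.0259, and *Ces1d* did not pass with size factors (limma adjusted p = 0.0635). The 5 lower in *Apoe* KO mice were *Ces1d* (−1.01), *Dhrs3* (−0.59), *Rdh11* (−0.51), *Rxra* (−0.43) and *Rdh10* (−0.38). The 3 genes that follow, all higher with EtOH, were chosen after their values were seen. *Cyp26b1*, which degrades retinoic acid, was 180 to 354 in pair-fed and 288 to 3290 in EtOH-fed WT mice, and 112 to 246 in pair-fed and 884 to 1487 in EtOH-fed *Apoe* KO mice.

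*Cyp26b1* thus rose by 1.75 in WT and by 2.84 in *Apoe* KO mice (limma adjusted p = 0.0361 and 1.24e-05), with overlap in WT and none in *Apoe* KO mice. *Stra6l*, which encodes a receptor for retinol-binding protein, rose by 1.35 and 1.13 (adjusted p = 7.44e-05 and 0.000157), and the retinol dehydrogenase gene *Dhrs9* rose by 1.51 and 3.02 (adjusted p = 0.0354 and 0.000174), the latter from a mean of 11.6 units. Their interactions with genotype did not pass (adjusted p = 0.407 for *Cyp26b1*, 0.654 for *Stra6l* and 0.174 for *Dhrs9* by limma).

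Reelin and apolipoprotein E share receptors of the LDL receptor family. *Reln* itself stayed at means of 1532 to 1618 in the 4 groups, with no pairwise log2 difference beyond 0.09 in size. Of 11 genes of the reelin axis, *Efnb1*, an ephrin ligand, rose against EtOH-fed WT mice by 0.50 (limma adjusted p = 0.0413, a call lost with size factors at 0.0993 and without mouse 1 at 0.068), and *Apoe* fell by the knockout (−4.21). Chosen after its values were seen, the receptor gene *Vldlr* rose with EtOH in WT mice from 202 to 326 to 461 to 575, by 0.95 (limma adjusted p = 0.00254). In *Apoe* KO mice the same comparison gave 0.71 (adjusted p = 0.156). Of 10 genes around *Ngfr* in the neurotrophin axis, *Arhgdia* rose by 0.57 (limma adjusted p = 0.0133) and none fell. With size factors *Arhgdia* did not pass (0.44, limma adjusted p = 0.0522). Over all genes 4.25% passed upward and 0.445% downward between the EtOH-fed genotypes.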

How the data were processed

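PolyA RNA of whole liver was sequenced from 18 mice, grouped by their labels. Per the labels and methods, RNA was extracted with TRIzol, and reads were checked with FastQC, trimmed with Trimmomatic, aligned with HISAT2, handled with SAMtools and counted with featureCounts, with GRCm38 as the build (versions not given in the sources used here). The authors deposited 1 table of signal, that is, read counts per gene brought to almost 1 shared total and rounded. The scaling and the strand setting of the counting are not given in the sources used here. The table also holds the authors' own mean signal, log2 fold changes, standard errors, p-values and adjusted p-values from DESeq2, which were not used. The lowest mean signal is 12.1. Of 15247 lines, 195 repeated 1 of 56 genes with identical values, and each of the 15052 genes was used once. Of these, 15040 were placed in GENCODE release M21, whose merged exon lengths gave the levels per kb.

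limma 3.58.1 in R 4.3.3 was run on log2(value + 1) with an intensity trend, on the groups compared only, and on all 18 mice for the interaction. Tested on simulated data for the genotypes on EtOH, it called 195 of 200 genes changed by 2 on the log2 scale. Its calls over 15052 genes held 11 unchanged genes. In the other pairwise comparisons it called 188 to 191 of 200, with 6 to 17 unchanged genes. Smaller changes and differences in depth between mice were not simulated, so recovery of such changes is not known. Units per read were read from gaps between low values (window of 31 values, log-likelihood lead over 10). Python 3.11.15 with numpy 2.4.6, pandas 2.3.3 and matplotlib 3.10.9 did the rest. Promoter windows came from RefSeq (GRCm38.p6), leaving out chromosome 18, where *Pdgfrb* lies.

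The members and the gene lists were chosen with earlier results of these data known. All members are named, and from each other list at most 4 genes with an adjusted p under 0.05 between the EtOH-fed genotypes, the lowest first, or, where none passed, the 3 with the highest mean. The 5 genes most like *Lrat* and *Acta2* were named by their correlation. A gene that this rule names is not reported here. As alternatives, a pseudocount of 5, median-of-ratios size factors, a mean of at least 50, all 4 groups in the fit, the replicate block and leaving out each mouse were tried. Counts and single genes of the other lists without EtOH-fed *Apoe* KO mouse 1 and with size factors were added after the data were seen.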

Additional observations from a re-analysis of the deposited data

Results flagged for a closer look

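The effect of EtOH on *Vim* differed between the genotypes, with an interaction of 2.47 on the log2 scale (limma, Benjamini-Hochberg adjusted p = 0.0069). It is the only marker of the 9 for which the interaction passed.

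Single mice stood apart from the rest of their group on the log2 scale by Dixon's ratio, the gap to the nearest mouse over the range of the group. Of 36 groups of marker values 2 were past its 95% critical value, where chance flags about 1 in 20, or 1.8. Pair-fed *Apoe* KO mouse 3 had the lowest *Lrat* value of its group (572, ratio 0.728), and pair-fed *Apoe* KO mouse 2 the highest *Reln* value (1936, ratio 0.729). Among the genes that check the labels, EtOH-fed *Apoe* KO mouse 1 had the lowest *Apoe* (12041, ratio 0.855) and *Xist* (826, ratio 0.917) and the highest *Eif2s3y* value (898, ratio 0.866) of its group.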

How the results depend on the processing

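Of the 9 log2 fold changes in 5 comparisons, 45 in all, the calls were the same with size factors, a pseudocount of 5, a mean of at least 50 and the replicate block. With all 4 groups in the fit, the pair-fed comparison called 0 markers in place of 2 and the WT diet comparison 1 in place of 2. *Reln* in EtOH-fed *Apoe* KO against WT mice turned to −0.08 with size factors and to −0.02 with the block. Leaving out 1 mouse gave 0 to 1 markers in EtOH-fed *Apoe* KO against WT mice, 0 to 2 in pair-fed mice, 1 to 2 for the diet in WT mice, 3 to 6 for the diet in *Apoe* KO mice (3 without EtOH-fed *Apoe* KO mouse 4) and 1 to 2 in the interaction. Over all genes the ranges were 327 to 620 of 706 (least without EtOH-fed WT mouse 1, also 353 and 408 without EtOH-fed *Apoe* KO mice 4 and 5), 73 to 670 of 261 (73, 91, 119, 127 and 166 without pair-fed WT mice 2 and 4 and pair-fed *Apoe* KO mice 1, 4 and 3, and 670 and 452 without pair-fed WT mouse 3 and pair-fed *Apoe* KO mouse 5), 1186 to 1904 of 1912 (1186 and 1231 without pair-fed WT mice 2 and 4), 2637 to 3320 of 3488 and, in the interaction, 167 to 561 of 428 (167 and 241 without pair-fed WT mice 4 and 2, 266 without pair-fed *Apoe* KO mouse 3, 228 without EtOH-fed WT mouse 1, and 241 and 252 without EtOH-fed *Apoe* KO mice 4 and 5). The signs that turned were of values that did not pass, with ranges for *Reln* of −0.06 to 0.16 (EtOH-fed genotypes), −0.01 to 0.25 (pair-fed genotypes), −0.15 to 0.07 (diet in *Apoe* KO) and −0.20 to 0.07 (interaction), for *Pdgfra* and *Pdgfrb* in pair-fed mice of −0.01 to 0.25 and −0.04 to 0.25, for *Ecm1* and *Des* with the diet in WT mice of −0.15 to 0.06 and −0.01 to 0.28, and for *Ngfr* of −0.55 to 0.21 (diet in *Apoe* KO) and −0.76 to 0.01 (interaction). The cause of these changes was not tested.

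The replicate numbers in the labels were not taken to pair mice. Same-numbered mice of the EtOH-fed genotypes correlated by 0.135 on average (−0.0242 to 0.23), over 0.1 in 3 of 4 pairs, and 6 of 8 mice were closest to their own number, against 3, 2 and 3 of 8 in the other comparisons. With the block, 1083 in place of 706 genes passed between the EtOH-fed genotypes and 392 in place of 261 between the pair-fed ones, and no call of a marker changed.

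Depth limits the markers with low values. One read stood for up to 5.75 units, so that a few units more or less of *Acta2* or *Ngfr* could not be detected in the shallowest libraries.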
